A study of Mus musculus with 2 samples.

Results

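Zbtb20 encodes a zinc finger repressor with a BTB domain, and its locus on mouse chromosome 16 held the strongest MEF2A peak of the series. The members described here are the peaks of the optimal set on mm10 whose summit lay inside Zbtb20 (42875689 to 43634392, RefSeq on GRCm38.p6) or within 100 kb of it. They number 49 of the 31497 peaks of that set. The locus was chosen by the signal of its strongest peak, so the signals and ranks below describe it and support nothing, and no test was applied to them. The same rule on the mm9 list gave 36 of 16839 peaks (Zbtb20 at 42875994 to 43642715, GENCODE vM1 on NCBIM37). The data come from chromatin immunoprecipitation with a MEF2A antibody and sequencing (ChIP-seq) in CH12.LX, an immortalized B cell lymphoma line from the mouse strain B10.H-2aH-4bp/Wts. The labels name no treatment and give 2 biological replicates, numbered 1 and 2, which form 1 group. Both replicates are of 1 cell line, no other line or condition was measured, and RNA was not, so the B cell label could not be set against marker expression. Read depth is unknown, since the files are lists of peaks.

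MEF2A is a MADS-box transcription factor of the MEF2 family and binds an AT-rich element as a dimer. In B cells the family member MEF2C is known for its part in proliferation after antigen receptor stimulation. ZBTB20 belongs to the BTB zinc finger proteins, the family of BCL6, which bind DNA through zinc fingers and recruit corepressors through the BTB domain. In mouse liver it represses alpha-fetoprotein, and in mouse B cells it is found in germinal centre and plasma cells and supports long-lived antibody responses.

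Zbtb20 is a gene of 758704 bp, transcribed on the plus strand from several promoters, and most of its peaks lay in its introns. Because the genome sequence used was of mm9, the sequences that follow are of mm9 peaks. They are the 101 bases around the summit of each of the 6 mm9 peaks that ranked in the first 10% of that list, given from the strongest down, and of the one other peak with a full MEF2 consensus. All are on the plus strand of NCBIM37, in lower case, with matches of the searched motifs in capitals. The capitals mark the MEF2 consensus in the strongest peak, the AP-1 and NF-kB elements in the second, and an AP-1 element and a MEF2 core in the third. In the next 3 they mark a RUNX element, another RUNX element and an E-box, and in the last a MEF2 consensus and, downstream of it, a MEF2 core.
rank 1, chr16:43383362-43383462: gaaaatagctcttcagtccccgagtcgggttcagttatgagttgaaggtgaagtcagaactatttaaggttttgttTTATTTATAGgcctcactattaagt
rank 50, chr16:43493873-43493973: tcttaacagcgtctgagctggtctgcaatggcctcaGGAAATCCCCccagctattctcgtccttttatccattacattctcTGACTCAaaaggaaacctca
rank 401, chr16:43655505-43655605: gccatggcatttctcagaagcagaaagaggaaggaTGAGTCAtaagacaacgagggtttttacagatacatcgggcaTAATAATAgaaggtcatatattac
rank 1328, chr16:43190624-43190724: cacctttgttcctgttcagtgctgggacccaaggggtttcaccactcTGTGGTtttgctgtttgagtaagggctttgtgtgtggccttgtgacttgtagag
rank 1335, chr16:43661833-43661933: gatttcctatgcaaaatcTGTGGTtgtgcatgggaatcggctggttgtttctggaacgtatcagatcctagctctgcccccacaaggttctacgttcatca
rank 1340, chr16:43409374-43409474: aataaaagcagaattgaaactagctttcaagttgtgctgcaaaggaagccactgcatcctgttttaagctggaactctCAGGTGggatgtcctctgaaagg
rank 9078, chr16:43175174-43175274: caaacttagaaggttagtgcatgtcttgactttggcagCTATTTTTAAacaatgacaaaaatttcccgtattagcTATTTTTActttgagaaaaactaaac

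The strongest peak of the locus stood first in every list. It spanned chr16:43383107-43383536 on mm10, 430 bp wide, with its summit at 43383337. Its signal, the authors' own value per peak, was 257 in replicate 1, 281 in replicate 2 and 535 in the optimal set. The scale of the signal is set by each call, so ranks and not signals are compared between lists. The second peak of each whole list had a signal of 234 in replicate 1, 264 in replicate 2 and 475 in the optimal set, so the lead over it was 1.10-fold, 1.06-fold and 1.13-fold. In the mm9 list the strongest peak had a signal of 2598, against 2181 for the next peak of the list, 1.19-fold. The first place was thus held by a narrow margin in each list.

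A second member also ranked near the top of the genome. It spanned chr16:43493688-43493947 and its summit lay 110 kb downstream of the strongest one, inside Zbtb20. Its signal was 160 in replicate 1 (rank 41), 234 in replicate 2 (rank 12) and 397 in the optimal set (rank 21). Within the locus the strongest peak exceeded it by 1.60-fold in replicate 1, 1.20-fold in replicate 2, 1.35-fold in the optimal set and 3.42-fold in the mm9 list, where the second peak (signal 759) ranked 50th. The ratio differed between the lists, whose signals are on different scales, while the order of these peaks was the same in each.

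The third member by signal lay beyond the end of Zbtb20, inside Tigit, the neighbouring gene on the opposite strand, which encodes an inhibitory receptor of T cells and natural killer cells. It spanned chr16:43655388-43655530, with a signal of 85.0 in replicate 1 (rank 456), 152 in replicate 2 (rank 324) and 232 in the optimal set (rank 396). On mm9 the peak at a like distance from the strongest one (rank 401) lay 8742 bp from the Tigit transcription start site (TSS). A peak with summit at 43661770 on mm10, also inside Tigit, had a signal of 54.1 in replicate 1, 86.0 in replicate 2 and 135 in the optimal set (rank 1448). Its mm9 counterpart by distance (rank 1335) lay 2414 bp from the Tigit TSS, the nearest of the mm9 peaks to it. On mm10 a weaker member, with summit at 43664607 (signal 36.2, rank 14970), lay closer to the start of Tigit, which RefSeq places at 43665125. It had no mm9 peak at a like distance. Tigit was the only other protein-coding gene that the window met. These peaks are members by distance to Zbtb20, and which gene they act on was not measured.

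Of the 49 members, 10 (20.4%) ranked in the first 10% of the optimal set, that is at rank 3149 or better. Beside the 4 peaks above of rank 1, 21, 396 and 1448, these were 5 inside Zbtb20 and 1 inside Tigit. The most upstream of them, with summit at 43190559, had a signal of 38.5 in replicate 1, 103 in replicate 2 and 143 in the optimal set (rank 1299). The member with summit at 43253296 had 28.8, 64.7 and 93.4 in the same lists (rank 2982). The member with summit at 43409311 had 55.5 in replicate 1, 74.2 in replicate 2 and 132 in the optimal set (rank 1531). These 3 peaks lay 193 kb and 130 kb upstream and 26.0 kb downstream of the strongest summit.

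A pair of members stood 94 to 99 kb downstream of it. The first, with summit at 43477157, had a signal of 45.4 in replicate 1, 63.9 in replicate 2 and 109 in the optimal set (rank 2194). Its neighbour at 43482402 had 29.2, 71.2 and 99.0 in the same lists (rank 2663). The member inside Tigit at 43653457 had 29.2 in replicate 1, 75.5 in replicate 2 and 107 in the optimal set (rank 2309). In each replicate these 10 members were all among the first 4301 intervals, and their replicate summits lay within 92 bp of the optimal ones.

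The other 39 members ran from a signal of 84.9 (rank 3506) down to 13.7 (rank 29599). The median over all 49 members was 50.5, against 34.9 over all optimal peaks, and 31 of 49 (63.3%) were at or above that genome-wide median. By place, 37 summits lay inside Zbtb20, 1 upstream of it, 6 in the part of Tigit beyond its end and 5 past Tigit. Peaks near the limits of the window were few. The outermost member on the high side lay 65.1 kb past the end of the gene, and the nearest optimal peak outside the window lay 168 kb past it (signal 35.1). On the low side the outermost member lay 0.552 kb before the gene and the nearest peak outside lay 214 kb before it (signal 24.8).

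**Figure D1:**
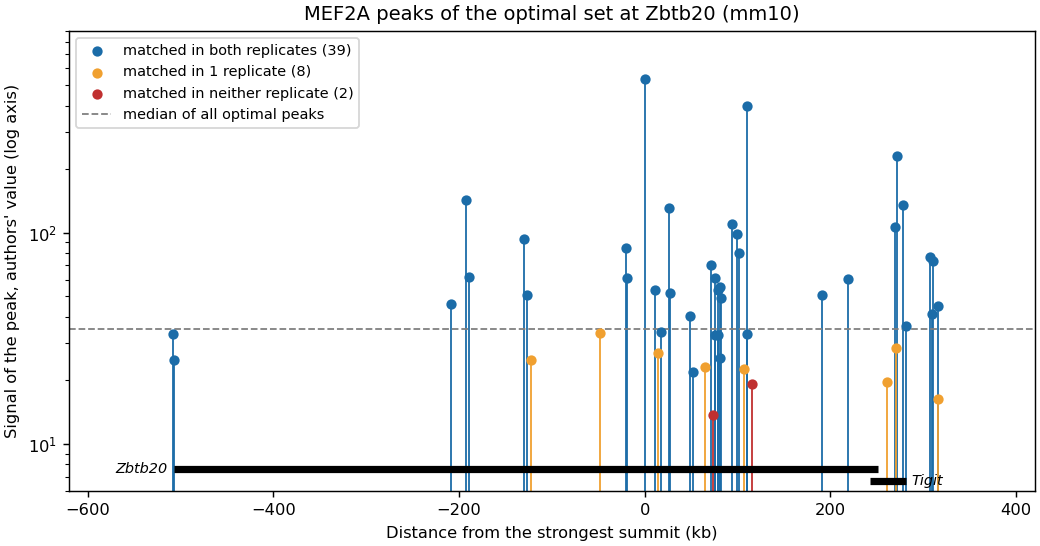
Signal of each of the 49 optimal peaks (authors' value, log axis) against the distance of its summit from the strongest summit in kb, coloured by how many replicate lists hold a matching interval; the dashed line is the median of all optimal peaks (34.9) and the black bars are Zbtb20 and Tigit. The peaks at 0 kb (535), 110 kb (397) and 272 kb (232) stand above the rest, and the upstream part of the gene is empty for 299 kb.

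The members were spread unevenly along the gene. No summit fell between 42875752 and 43175125, a stretch of 299 kb that takes in the upstream part of Zbtb20. In contrast, 23 of the 49 members lay within 100 kb, from 43394889 to 43493813, with signals from 13.7 to 397 and a median of 49.3. Among all 31497 stretches of 100 kb that start at an optimal summit the median held 4 summits and the fullest 30, and 0.464% held 23 or more. These stretches overlap one another. The stretch of 23 was also picked as the fullest of the window, so the share is a description. The strongest peak lay outside this dense stretch, 11.6 kb upstream of its first summit, and the rank 21 peak was its last. The median distance between neighbouring members over the whole window was 3773 bp. In 3 neighbouring pairs of this stretch the intervals themselves overlapped, with summits 199 to 209 bp apart, so that 49 peaks made 46 separate intervals.

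The members were next looked up in each replicate. A match was an overlap of 1 bp or more with an interval among the first 31497 of the replicate list, as many as the optimal set holds. By this measure 39 of 49 members (79.6%) matched in both replicates, against 64.7% of all optimal peaks, and 8 matched in 1 and 2 in neither. The members with summits at 43459255 and 43464690 matched in replicate 2 only through another overlapping interval. Their intervals of nearest summit there ranked 36731 and 59426. With only the first 10000 intervals of each replicate list, 18 of 49 matched in both. At that limit the share over all optimal peaks was not computed. The optimal set was made from these same replicate lists, and the median signal of the members was above that of all optimal peaks. The share of 79.6% is therefore a description. The 10 members without a match in both ranked between 16773 and 29599, so each of the 31 members at or above the median signal was matched in both. The conservative set, the other set made with IDR (irreproducible discovery rate), overlapped 43 of the 49 members (87.8%), against 76.6% of all optimal peaks.

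The order of the members was broadly alike in the replicates. Over the 47 members with an overlapping interval at any rank in both lists, Spearman's rho of the ranks was 0.80, as a description over peaks that share a cell line and, in places, neighbours. By the interval with the nearest summit, 23 members ranked better in replicate 1, 23 ranked better in replicate 2, and the strongest held rank 1 in each. Single members differed more. The member with summit at 43335681 had no overlapping interval in replicate 1 and ranked 6798th in replicate 2. The member at 43484600 ranked 13741st in replicate 1 and 2458th in replicate 2, and the member at 43664607, inside Tigit, ranked 7885th in replicate 1 and 30573rd in replicate 2. Each replicate gives 1 value for a member, so these differences were not tested.

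**Figure D2:**
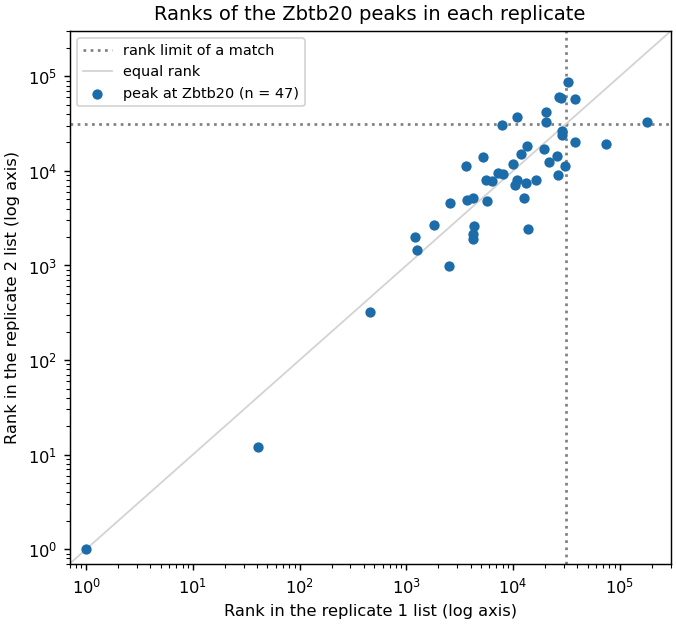
Rank of each member in the replicate 2 list against its rank in the replicate 1 list (both log axes), for the 47 members with an interval in both lists; the grey line is equal rank and the dotted lines are the rank limit of a match (31497). Ranks are of the interval with the nearest summit, so a member past a dotted line can still match through another overlapping interval. The strongest peak is at rank 1 in both, the second at 41 and 12, the third at 456 and 324, and the spread widens among weaker peaks.

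The promoters of Zbtb20 are spread along the gene. GENCODE vM1 gives Zbtb20 22 transcripts, of which 13 are protein-coding, with start sites that fall into 7 groups when sites within 5 kb of the next are joined. The summits of all 28 mm9 peaks inside the gene fell in introns, and their median distance to the nearest Zbtb20 TSS was 35433 bp. Of the 36 mm9 peaks, 2 (5.56%) lay within 500 bp of such a TSS, and none of the others lay that near a TSS of another gene. Over the whole mm9 list 21.1% of summits lay within 500 bp of a TSS of any gene, a share computed after the values of the locus were seen. Both peaks were at the same group of start sites (43363161 to 43364317), and each had a Zbtb20 exon near its summit. The first lay 31 bp from a TSS with a signal of 113 (rank 3228) and the second 99 bp from another with a signal of 65.1 (rank 7784). The strongest peak lay 19095 bp downstream of this group.

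The other groups of start sites had no peak at them on mm9. The nearest peak to the group at 43503727 to 43510421, which starts 7 transcripts, was the rank 50 peak, 9804 bp upstream. The group at 43247397 had a peak of rank 2271 at 6012 bp, and the group at 43235993 to 43236152 had the same peak at 17.3 kb. The nearest peak to the start at 43620990 (rank 7012) was 18.1 kb away. The outermost groups, at 42875994 and at 42907505 to 42907765, had none within 267 kb. On mm10 a pair of weak optimal peaks did stand at the outer end of the gene, where RefSeq starts it. The first had its summit at 42875137 (signal 33.1, rank 17034), 552 bp before that start. The second had its summit at 42875752 (signal 24.8, rank 24229), 63 bp past it. Both lay in the noncoding gene 4932412D23Rik that ends there. The TSS taken as the RefSeq promoter of Zbtb20 (43247284 on mm10), which lies inside the gene, had its nearest optimal summit 6012 bp away.

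The mm9 list, made from the mm9 alignments of both replicates, placed nearly all of its peaks of the window near an optimal peak by distance. Coordinates were not converted, and positions were compared only as distances from the strongest summit within each build. Of the 36 mm9 peaks, 35 had an optimal peak whose distance from the strongest summit was the same within 150 bp, and the other was a weak peak at 43710055 (rank 12988). The 14 optimal members with no such mm9 peak had ranks of 14970 or worse on mm10, with signals up to 36.2. The share of peaks placed alike over the whole lists was not computed, so these counts describe the window alone. Of the mm9 peaks 28 lay inside Zbtb20 and 8 downstream of it, 3 of them inside Tigit.

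**Figure D3:**
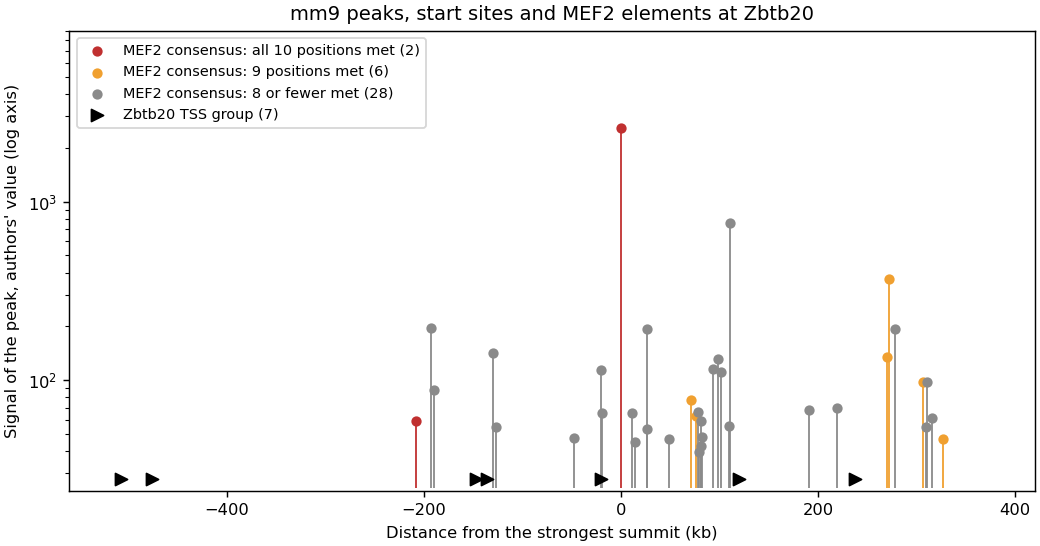
Signal of each of the 36 mm9 peaks (authors' value, log axis) against the distance of its summit from the strongest summit in kb, coloured by how many of the 10 positions of the MEF2 consensus the best site within 50 bp meets; triangles mark the 7 groups of Zbtb20 start sites. The strongest peak (2598) and a weak one 208 kb upstream (58.9) meet all 10 positions, and the second peak (759) is among those that meet 8 or fewer.

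The strongest peak held a match to the MEF2 consensus, and most of the other members did not. The MEF2 consensus, searched on both strands within 50 bp of the summit, occurred in 2 of 36 mm9 members (5.56%), against 7.13% of all mm9 peaks. In the strongest peak it read TTATTTATAG at chr16:43383438-43383447, centred 30 bp downstream of the summit, and it was the only match in the 464 bp interval. The other match, CTATTTTTAA at chr16:43175212-43175221, was 8 bp upstream of the summit of a peak that ranked 9078th. In the whole interval the consensus again occurred in 2 members, against 10.3% of all mm9 peaks. The 8-letter MEF2 core, which lies inside the consensus and has 4 letters A or T between TA and TA, occurred in 3 members (8.33%), against 11.2% of all peaks. The third of these was the rank 401 peak inside Tigit, with TAATAATA at chr16:43655582-43655589. The strict form, which starts with C and ends with G, occurred in 0 of 36 members, against 3.64% of all mm9 peaks. As a rough guide, a count of 0 in 36 could go with a share of up to about 8.33%. That guide takes the members as independent, which neighbouring peaks may not be.

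A looser count gave a like picture. Sites that met at least 9 of the 10 positions of the consensus were present in 8 of 36 members, against 23.6% of all mm9 peaks. This count was chosen after the values were seen. The second strongest peak, at rank 50, met 7 positions at best, and the peaks of rank 1328 and 1335 also met 7. The members differed from one another: among the 6 strongest mm9 members, 1 met all 10 positions, 1 met 9, 1 met 8 and 3 met 7.

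Matches to elements of other factors stood at several of the strong members. The element of AP-1, the dimer of JUN and FOS proteins, was searched as TGANTCA, with any base in the middle. It was present near the summit, within 50 bp, in 7 of 36 members (19.4%), against 12.2% of all mm9 peaks. Among these members were the rank 50 peak, with TGACTCA at chr16:43493954-43493960, and the rank 401 peak. In the rank 3228 peak at the internal promoter TGACTCA lay 4 bp from the summit. The members of rank 13655 and 12965 were counted through TGATTCA and TGAATCA. The element of NF-kB, a factor of immune and stress responses, occurred in 4 members (11.1%), against 8.37%. In the rank 50 peak it read GGAAATCCCC at chr16:43493909-43493918, so that the second peak of the locus held AP-1 and NF-kB elements and no MEF2 core. The RUNX element TGTGGT occurred in 5 members (13.9%), against 13.3%, among them the peaks of rank 1328 and 1335.

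Matches to elements of B cell factors were present in a few members each. The octamer ATGCAAAT, bound by the POU factors OCT1 and OCT2, occurred in 3 members (8.33%), against 3.12% of all mm9 peaks, and PU.1 sites (GAGGAAGT) in 2 (5.56%), against 3.24%. One member, the peak of rank 5925, held both. The joint ETS and IRF site (GGAANNGAA) occurred in 2 members (5.56%), against 6.21%, and one of them was the rank 7784 peak at the internal promoter. The interferon-stimulated response element (GAAANNGAA) occurred in 3 (8.33%), against 5.99%. The EBF1 element (CCCNNGGGA) occurred in 1 (2.78%), against 4.5%, and the E-box CAGGTG in 3 (8.33%), against 10.1%. Some of these words can share letters, and in 1 member a pair of overlapping matches to the interferon-stimulated element was counted once. In 11 of 36 members none of these 10 motifs matched, and the share of all mm9 peaks without any was not computed. All matches were exact and on either strand, and with counts this small no share sets the locus apart from the list. The members were also poorer in G and C around the summit than the list, with a median G and C content of 45.0% (range 29.7 to 56.4) against 49.5%, and the strongest peak had 37.6%. The part of this base composition in the motif counts was not tested.

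Set beside other genes, Zbtb20 had many peaks for a gene of its length. Its body held 37 optimal summits, the sixth highest count among 21631 protein-coding genes, after Foxp1 (51), Prkca (46), Ebf1 (40), Atxn1 (39) and Hivep3 (38). Foxp1, Ebf1 and Hivep3 encode transcription factors, Prkca a protein kinase C and Atxn1 the ataxin-1 protein. Per length it was less unusual: the window held 5.11 peaks per 100 kb, against a median of 1.82 over all genes with the same margin, and 15.0% of genes had as many or more. Among the 227 genes of 500 kb or longer, a limit chosen after the values were seen, the median was 0.133 per 100 kb, 109 had no peak in the body, and Foxp1 (6.77) was the only one above Zbtb20. Next after Zbtb20 came Pde4b (3.61). The windows of neighbouring genes overlap, so these counts are not independent.

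**Figure D4:**
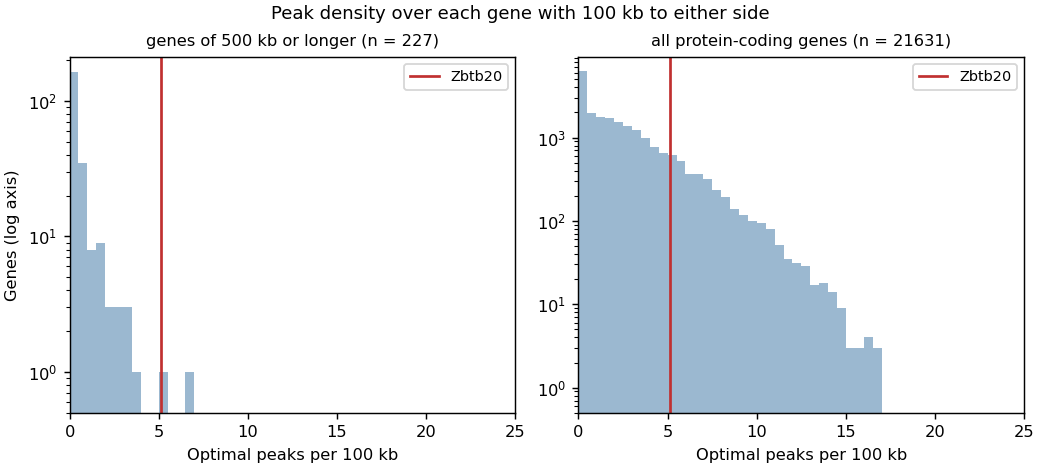
Number of protein-coding genes (log axis) by optimal peaks per 100 kb, over each gene with 100 kb to either side, for the 227 genes of 500 kb or longer (left) and all 21631 genes (right); the red line is Zbtb20 (5.11). Zbtb20 is second among the long genes, while many shorter genes lie to its right.

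The genes most like Zbtb20 by the ranks of their strongest peak inside the gene body were Matn2, Rad51b, Lyn, Manba and St6gal1. Likeness was the sum of that rank over the replicate 1, replicate 2 and optimal lists, which was 3 for Zbtb20. The sum was 11 for Matn2, which encodes a matrilin of the extracellular matrix (ranks 6, 3 and 2), and 12 for Rad51b, of homologous recombination (4, 4 and 4). It was 26 for the kinase gene Lyn (7, 11 and 8) and for Manba, which encodes beta-mannosidase (2, 19 and 5), and 36 for the sialyltransferase gene St6gal1 (8, 18 and 10). These genes are of 85.8 to 551 kb, shorter than Zbtb20, and their number of peaks varied. Matn2 and Manba had 3 optimal summits each in the body, Lyn 7, Rad51b 20 and St6gal1 28, against 37 in Zbtb20. Per 100 kb of gene and margins the order was another: Zbtb20 had 5.11 peaks, St6gal1 10.4, Manba 8.75, Lyn 5.10, Rad51b 2.93 and Matn2 1.52. The second peak of Zbtb20 (rank 21) was not counted in this measure.

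Other BTB zinc finger genes of lymphocytes were looked up too. Their peaks could only be weaker, since the locus was chosen by its strongest peak. Of 14 such genes, listed by name, 12 had an optimal summit inside the gene body, against 34.9% of all protein-coding genes. The list was drawn up with earlier results of these data known, and gene length differs widely among its members. The strongest peak was in Zbtb16, which encodes PLZF, a factor of innate-like T cells, with a signal of 316 (rank 120; ranks 98 and 145 in replicates 1 and 2). Zbtb38, which encodes a methyl-CpG binding protein, had 146 (rank 1227), Zbtb1, needed for lymphocyte development in mice, had 119 (rank 1854), and Hic1, a transcriptional repressor, had 62.9 (rank 5986). Bcl6, the repressor that directs the germinal centre programme, had 3 peaks, the strongest of signal 25.6 (rank 23457). Zbtb18 and Zbtb24 had no optimal summit in the body. In the replicate lists Zbtb18 had an interval there at rank 28476 in replicate 1 and 20206 in replicate 2. Zbtb24 had one at rank 14052 in replicate 2.

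Regulators of plasma cell fate that act beside Zbtb20 all had peaks in the gene body, none as high as the second peak of Zbtb20 (rank 21). These are 6 of 6 listed genes, against 34.9% of all protein-coding genes, on a list drawn up in the same way. Their lengths differ widely, from 5.35 kb for Xbp1 to 348 kb for Bach2, and the part of length in the counts was not tested. Pax5, which maintains B cell identity, had 14 summits in its body, the strongest of signal 158 (rank 1042), and Bach2, a repressor of plasma cell differentiation, had 9 (151, rank 1145). Prdm1, which encodes the plasma cell repressor BLIMP1, had 8 (79.3, rank 3944), Irf4, a factor required for plasma cells, had 3 (77.7, rank 4098), and Xbp1, of the secretory programme, had 2 (62.8, rank 6005). Bcl6, on this list too, is given above. Counts within 100 kb to either side were 31 for Prdm1 and 32 for Irf4, against 49 for Zbtb20 with its longer body. Per 100 kb of gene and margins, Irf4 (14.7) and Prdm1 (10.6) had more peaks than Zbtb20 (5.11). Pax5 (4.15), Xbp1 (3.41), Bach2 (2.56) and Bcl6 (1.79) had fewer.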

How the data were processed

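MEF2A ChIP-seq was done in 2 biological replicates of CH12.LX cells. The data are 6 peak lists (narrowPeak): 5 use mm10 and 1 uses mm9. Texts deposited beside the lists say that the replicate lists were called on each alignment and the pooled list on both, each with a control file, and the IDR sets (irreproducible discovery rate) were made from these 3 lists; the mm9 list came from both mm9 alignments. Which caller and aligner were used is not given in the sources used. Signal values were taken as the authors deposited them, and ranks are by signal. The score column as the authors deposited it reaches below 0 in mm10 lists and served 1 alternative ranking. Each relaxed list holds 300000 intervals, and read depth is unknown.

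Coordinates are 1-based. Genes, positions and promoters on mm10 came from RefSeq tables of GRCm38.p6, and mm9 sequence and transcripts from NCBIM37 and GENCODE vM1; each mm9 chromosome with peaks was long enough for its highest peak end. Motifs were exact matches on either strand within 50 bp of the summit, and the share of each motif stands beside that over the whole list. Replicate values of a member are those of the overlapping interval with the nearest summit. Named are the members in the first 10% of the optimal set, protein-coding genes in the window, the 5 genes with the lowest sum of ranks, and listed genes. Members, lists and motifs were chosen with earlier results of these data known. Motif search and matching were tested on simulated data. Python 3.11.15, numpy 2.4.6, pandas 2.3.3 and matplotlib 3.10.9 were used.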

Additional observations from a re-analysis of the deposited data

How the results depend on the processing

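Across 7 results and 38 alternatives, 32 values stayed the same or, for counts, within 1.5 times the main value. Restricting to the stronger 50% of peaks gave 31 in place of 49 optimal peaks, 3.23 in place of 5.11 per 100 kb, and 22 in place of 36 mm9 peaks, by its own construction. Matching within the first 10000 intervals of each replicate list gave 18 in place of 39 members. The strict MEF2 form gave 0 in place of 2 members. Measured to the outermost TSS, the strongest mm9 peak lay 507418 bp away in place of 19095 bp. Without 1 replicate, the count of members matched was 42 to 44, the count of intervals in the window 58 to 63, the density 6.05 to 6.57 per 100 kb, and the rank of the strongest peak 1 in each. The rank was also 1 in the conservative and pooled lists and by score, where 769 peaks were tied. The conservative set held 60 peaks in the window. Overlapping intervals counted once, an alternative chosen after seeing the data, gave 46 and 34 peaks. No paired analysis was possible because the replicates form 1 group. Depth limits cannot be given, as no reads were counted.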

Other observations

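The conservative set, which is shorter than the optimal set over the genome (28217 against 31497 peaks), held more peaks in the Zbtb20 window, 60 against 49. Of these 60, 15 overlapped no optimal peak. They were weak, with signals from 7.13 to 33.7 and a best rank of 16175 in the conservative set. Over the genome 85.4% of conservative peaks overlapped an optimal one, so the conservative set is not a subset of the optimal set in these files.

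Each replicate also had intervals in the window that stand in no optimal peak. Among the first 31497 intervals, replicate 1 had 63 in the window, of which 20 overlapped no optimal peak, with a best rank of 16451 and a highest signal of 14.1. Replicate 2 had 58, of which 15 overlapped none, with a best rank of 15984 and a highest signal of 23.0. The share of such intervals over the genome was not computed, so these counts describe the window alone.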
